A study of Gossypium barbadense and Gossypium hirsutum with 72 samples.

Results

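Shoot apexes of 2 cotton species were compared at the pre-squaring stage, before a floral bud (square) can be seen: Gb2WT, line Hai1 of G. barbadense, against Gh2WT, line Huazhong 94-3130 of G. hirsutum. Members are the mRNA libraries of these groups, 3 against 3, which makes 6 of the 36 mRNA libraries and of 72 samples in the series with the small RNA ones. Both lines bear normal fruiting branches and were field-grown, untreated and selfed to stable pure lines. The other groups used here are the same lines as seedlings (Gb1WT and Gh1WT) and at squaring (Gb3WT and Gh3WT), and the nulliplex-branch lines Xinhai16 (Gb2np) and 3798 (Gh2np) at pre-squaring, whose flowers sit on the main stem without a fruiting branch. By the labels Gb2WT plants had 8 leaves and Gh2WT plants 6, Gb2np 6 and Gh2np 5, Gb3WT 11 and Gh3WT 8, and seedlings 2. The leaf numbers in the study's methods differ from these in part, for Hai1 at squaring among others. Each species is represented by 1 line per branch type, so species, line and leaf number cannot be told apart. The hour of sampling is not given in the sources used here. p values measure the spread among 3 biological replicates of a line.

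Reads of both species were aligned to the G. hirsutum genome, so a gene of G. barbadense whose sequence has diverged or is lacking there can be undercounted. The files held about 23900000 to 24300000 counted reads per Gb2WT library and 25000000 to 25600000 per Gh2WT library, with 54158 to 54752 genes read at least once. Across the 47209 genes tested, log2(RPKM + 1) correlated at 0.985 to 0.987 between Gb2WT libraries, at 0.970 to 0.980 between Gh2WT libraries and at 0.844 to 0.870 between the groups. Library identity was checked with genes chosen on the other 30 mRNA libraries alone. Of 74 genes read in each of the other 15 G. barbadense libraries and in none of the other 15 of G. hirsutum, the Gb2WT libraries held reads of 73 to 74 and the Gh2WT libraries of 1 to 9. Of 155 genes with the reverse pattern, the Gh2WT libraries held reads of 154 to 155 and the Gb2WT libraries of 9 to 12.

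The change from leaf production to flowering and branching at the cotton apex runs through several families of regulators. MADS-box proteins such as SVP hold back flowering and others such as SEP3 pattern floral organs, the TCP protein BRC1 keeps axillary buds from growing out, and the circadian clock (LHY, its relative EPR1, and the pseudo-response regulator PRR5) links these steps to the time of day and to day length. These roles are known from Arabidopsis, and the cotton genes are named after their Arabidopsis homologues. A clock gene's transcript level rises and falls within each day in plants in general.

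Gb2WT and Gh2WT differed in 5571 of 47209 genes tested, 11.8% of them. A gene was called when edgeR's quasi-likelihood test gave a Benjamini-Hochberg adjusted p under 0.001 over all genes and the absolute log2 fold change was over 1. Of the genes called, 2523 (5.34% of those tested) were higher and 3048 (6.46%) lower in Gb2WT. The median log2 fold change was 2.43 among those higher and -2.33 among those lower, and 983 and 1196 genes changed by more than 3 on this scale. At an adjusted p under 0.05 alone, 42.9% of genes differed. The median log2 fold change over all genes tested was 0. In RPKM the libraries of the 2 groups did not overlap for 55.5% of genes tested, including all 5571 called.

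**Figure D1:**
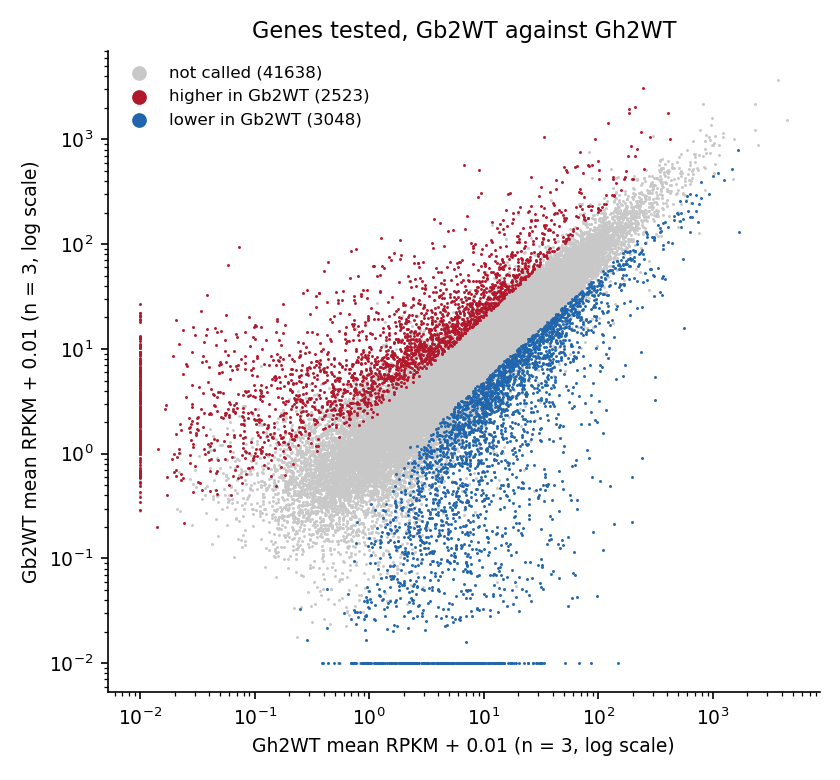
Mean RPKM (reads per kilobase of coding length, scaled to the library's reads) of each gene tested, plus 0.01, in Gh2WT (horizontal axis, log scale) and Gb2WT (vertical axis, log scale), n = 3 libraries each. Each point is a gene, with the 2523 genes called higher in Gb2WT in red, the 3048 called lower in blue and the rest in grey; the blue points along the lower edge and the red ones along the left edge include genes with no read in the other group.

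Genes at every level of expression were among those called. Of 1222 genes with a mean of at least 100 RPKM over the 6 libraries, 8.92% were higher and 10.4% lower in Gb2WT, against 4.37% and 5.82% of the 18919 genes between 10 and 100 RPKM and 5.77% and 7.09% of the 23005 genes between 1 and 10. Below 1 RPKM, 4063 genes were tested, with 6.37% higher and 4.6% lower. The median standard error of the log2 fold change was 0.43 in that lowest class and 0.13 above 10 RPKM. Low genes therefore needed a larger difference to be called.

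Without Gb2WT replicate 1, 2 or 3 the count of genes called became 3083, 2807 and 3381, and without Gh2WT replicate 3 it became 3666. It was 4392 without Gh2WT replicate 1 and 5857 without Gh2WT replicate 2.

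Named genes were grouped in 12 lists by the function of their Arabidopsis homologue. The lists hold 106 genes from the study's tables of branch-type differences, which were made on these samples, so their counts are descriptions. Of 102 members tested, 19 were higher and 16 lower in Gb2WT, beside 5.34% and 6.46% of all genes tested, the shares that also stand behind the counts of each list. The median log2 fold change over these members was 0.32, against 0 over all genes.

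The circadian clock genes LHY, EPR1 and PRR5 were all lower in Gb2WT, while a second LHY homologue did not pass the threshold. LHY (CotAD_32839), a morning-phased MYB factor of the central clock, had 0.165, 0.488 and 0.525 RPKM in the 3 Gb2WT libraries and 11.5, 9.55 and 7.12 in the 3 Gh2WT libraries. The lowest Gh2WT library thus stood far above the highest Gb2WT one, and the log2 fold change was -4.59 (SE 0.34, edgeR adjusted p = 1.7e-05). EPR1 (CotAD_30985), a MYB factor close to LHY, had 1.9, 2.38 and 3.3 RPKM in Gb2WT and 13.2, 18.5 and 13.4 in Gh2WT (log2 fold change -2.60, SE 0.22, edgeR adjusted p = 4.1e-05). PRR5 (CotAD_14148), a pseudo-response regulator that represses LHY, had 1.69, 1.21 and 1.54 RPKM in Gb2WT and 9.38, 8.77 and 10.9 in Gh2WT (log2 fold change -2.73, SE 0.16, edgeR adjusted p = 6.3e-06). Neither gene's groups overlapped. The second LHY homologue (CotAD_17426) ran the other way, with 14.4, 13.3 and 11.8 RPKM in Gb2WT and 7.8, 9.95 and 7.66 in Gh2WT, a log2 fold change of 0.62 that met neither threshold (SE 0.16, adjusted p = 0.015). In summed RPKM the 4 genes reached 17.2 to 18.1 in Gb2WT and 39 to 46.8 in Gh2WT. Over the list 0 members were higher and 3 of 4 lower, with a median log2 fold change of -2.66. The 3 calls were kept in each leave-one-out fit and each alternative fit.

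**Figure D2:**
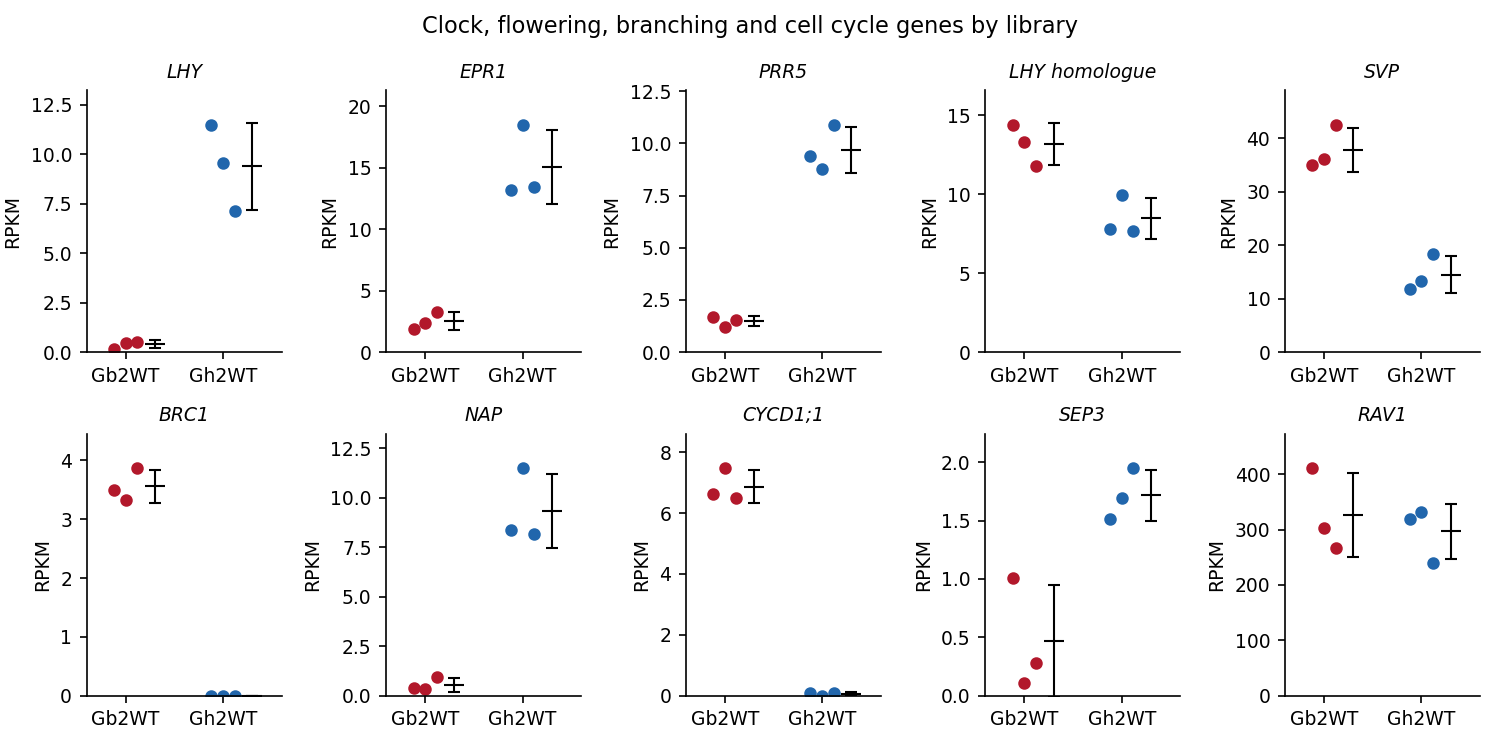
RPKM (vertical axes, starting at 0) of 10 clock, flowering, branching and cell cycle genes in each library, with Gb2WT in red and Gh2WT in blue; the black bar is the mean and SD of 3 libraries. LHY, EPR1, PRR5, NAP and SEP3 are lower in every Gb2WT library than in every Gh2WT library. SVP, BRC1, CYCD1;1 and the second LHY homologue are higher, while RAV1 overlaps. SEP3 and the second LHY homologue were not called, and 55.5% of all genes tested did not overlap.

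Of the 9 flowering and branching regulators, SVP and BRC1 were higher and NAP lower in Gb2WT, and 6 were not called. SVP (CotAD_47245), a MADS-box repressor of flowering, had 34.9, 36 and 42.5 RPKM in Gb2WT and 11.8, 13.3 and 18.3 in Gh2WT (log2 fold change 1.36, SE 0.16, edgeR adjusted p = 0.00026). BRC1 (CotAD_02759), the TCP factor that holds back axillary buds, had 82, 79 and 92 reads in Gb2WT (3.5, 3.32 and 3.87 RPKM) and no read in any Gh2WT library. Against 3 reads over the Gh2WT group this is at least 88.5-fold higher (edgeR adjusted p = 3.4e-05). The gene was read elsewhere in G. hirsutum, with 420 reads over its 18 libraries and 2.05 ± 1.4 RPKM (SD, n = 3) in Gh2np. In the same line at squaring, the Gh3WT libraries ran from 0 to 2.85 RPKM. The BRC1 species effects at squaring and in the nulliplex-branch pair were 0.98 and -0.72 and were not called (edgeR adjusted p = 0.44 and 0.24). NAP (CotAD_50063), a NAC factor known for leaf senescence and named in the flower as a target of floral organ genes, had 0.38, 0.327 and 0.937 RPKM in Gb2WT and 8.37, 11.5 and 8.17 in Gh2WT (log2 fold change -4.10, SE 0.35, edgeR adjusted p = 3.7e-05). The median log2 fold change of the list was 0.12.

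The other 6 regulators were not called. SEP3 and IAA18 did not overlap between the groups, which held for 55.5% of all genes tested. RAV1 (CotAD_22031), an AP2/B3 repressor of flowering and the most abundant of them, had 411, 303 and 266 RPKM in Gb2WT and 320, 331 and 239 in Gh2WT (log2 fold change 0.12, SE 0.20, adjusted p = 0.66). IAA18 (CotAD_00235), a repressor of auxin response, was above in each Gb2WT library (23.8, 21.2 and 19.3 against 12.9, 13.7 and 12.3 RPKM) but was not called, at a log2 fold change of 0.71 (SE 0.13, adjusted p = 0.0021). SEP3 (CotAD_35367), a MADS-box gene that marks floral meristems and organs, had 1.01, 0.111 and 0.278 RPKM in Gb2WT and 1.51, 1.69 and 1.95 in Gh2WT. It was low in both groups (log2 fold change -1.88, SE 0.58, adjusted p = 0.029). HB-8 (CotAD_75643), an HD-ZIP III factor of vascular strands, NF-YC13 (CotAD_21647), a subunit of the CCAAT-binding complex, and BARD1 (CotAD_54816), which restricts the meristem organiser WUSCHEL, overlapped between the groups, with log2 fold changes of 0.24, -0.32 and -0.36 and adjusted p of 0.48, 0.70 and 0.39. The SVP call was lost without Gb2WT replicate 1, 2 or 3 (adjusted p 0.0014 to 0.0019), and that of NAP with all 36 libraries in 1 fit (adjusted p = 0.0035).

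Of the 8 genes of replication, chromatin and cell division tested, CYCD1;1 was called higher in Gb2WT. POK2 and GTE4 lay above Gh2WT in every library without being called, beside 55.5% of all genes without overlap in either direction. CYCD1;1 (CotAD_53959), a cyclin that starts the cell cycle, had 6.64, 7.48 and 6.5 RPKM in Gb2WT and 0.0883, 0 and 0.0861 in Gh2WT (log2 fold change 6.74, SE 0.41, edgeR adjusted p = 6.9e-06). POK2 (CotAD_75962), a kinesin that orients the division plane, had 7.09, 6.65 and 8.1 RPKM in Gb2WT and 2.76, 2.72 and 5.47 in Gh2WT (log2 fold change 0.98, SE 0.25, adjusted p = 0.012). Without Gh2WT replicate 3 it became 1.37 and was called (edgeR adjusted p = 0.00025). GTE4 (CotAD_35408), a bromodomain protein, had 3.89, 4.27 and 3.81 RPKM against 2.59, 2.06 and 2.14 (log2 fold change 0.80, SE 0.15, adjusted p = 0.0031). The median log2 fold change of the list was 0.13. PCNA2 (CotAD_04662), the sliding clamp of DNA replication, had 14.1, 20.8 and 24.9 RPKM in Gb2WT and 18, 11.5 and 28.3 in Gh2WT (log2 fold change 0.03, SE 0.30, adjusted p = 0.95). The histone methyltransferase ATXR6 (CotAD_55265) and the origin recognition subunit ORC6 (CotAD_65745) likewise overlapped, at log2 fold changes of -0.29 and -0.08. Within Gh2WT the summed RPKM of the list was 30.8, 21.6 and 51.1, against 38 to 52.7 in Gb2WT. Gh2WT replicate 2 was thus the lowest of the 6 libraries, and replicate 3 lay within the range of Gb2WT.

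Carbon and energy metabolism was lower in Gb2WT in 4 of 6 genes and higher in 0, beside 6.46% and 5.34% of all genes, with a median log2 fold change of -1.39. The beta-amylase homologue (CotAD_35943), an enzyme of starch breakdown, had 1.92, 1.5 and 1.67 RPKM in Gb2WT and 18.4, 21 and 26 in Gh2WT (log2 fold change -3.70, SE 0.17, edgeR adjusted p = 2.1e-06). ADH1 (CotAD_10000), alcohol dehydrogenase of fermentation, had 0.8, 0.286 and 0.645 RPKM in Gb2WT and 4, 4.26 and 3.94 in Gh2WT (log2 fold change -2.83, SE 0.31, edgeR adjusted p = 0.00016). These groups stood well apart. ALDH11A3 (CotAD_00103), an aldehyde dehydrogenase that oxidises glyceraldehyde phosphate, averaged 3.06 ± 0.909 RPKM in Gb2WT and 8.99 ± 0.6 in Gh2WT (SD, n = 3; log2 fold change -1.57, edgeR adjusted p = 0.00038), and TPS5 (CotAD_16567), of the trehalose phosphate synthase family, 10.9 ± 1.04 and 24.8 ± 5.77 (log2 fold change -1.20, edgeR adjusted p = 0.00061). The calls of ALDH11A3 and TPS5 were each lost in 4 of 6 leave-one-out fits, without Gb2WT replicate 1 or 3 or Gh2WT replicate 3 in both cases, and also without Gh2WT replicate 1 for the former and Gb2WT replicate 2 for the latter (adjusted p up to 0.0051). TPS5 was not called by limma-trend either (adjusted p = 0.0013 and 0.0014 with pseudocounts of 1 and 0.1). The call of ADH1 was lost without Gb2WT replicate 3 (adjusted p = 0.0012).

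Genes of abscisic acid and dehydration moved in both directions, with 1 higher and 2 lower of 6 tested and a median log2 fold change of 0.17. DREB1C (CotAD_08496), a cold-response AP2 factor, had 189, 168 and 147 RPKM in Gb2WT and 48.8, 58 and 43.4 in Gh2WT (log2 fold change 1.73, SE 0.15, edgeR adjusted p = 5e-05). The gene HAI1 (CotAD_49345), not to be confused with the line Hai1, encodes a protein phosphatase induced by abscisic acid and had 0.635, 0.541 and 0.584 RPKM in Gb2WT and 3.08, 6.94 and 4.66 in Gh2WT (log2 fold change -3.07, SE 0.36, edgeR adjusted p = 2e-04). ERD4 (CotAD_41277), an early gene of dehydration, had 11.7, 14 and 15 RPKM in Gb2WT and 36.8, 50.6 and 43.3 in Gh2WT (log2 fold change -1.71, SE 0.15, edgeR adjusted p = 4.1e-05). Dehydrin 2 (CotAD_38978), a protective protein of drying cells, was not called. Gh2WT replicate 2 held 1507 RPKM beside 592 and 463 in the other replicates and 350, 373 and 269 in Gb2WT (log2 fold change -1.39, SE 0.41, adjusted p = 0.023). The same library held 10.1 RPKM of the AP2 factor ABR1 (CotAD_39897), against 2.39 and 1.32 in the others of Gh2WT and 19.2, 20.2 and 11.7 in Gb2WT (log2 fold change 1.86, SE 0.62, adjusted p = 0.038). Without Gh2WT replicate 2, ABR1 was called higher in Gb2WT at 3.20 (edgeR adjusted p = 6.8e-05). The HAI1 call was lost without any 1 Gb2WT library or Gh2WT replicate 3 (adjusted p 0.001 to 0.0021).

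Among 11 transport genes 5 were higher and 2 lower in Gb2WT, with a median log2 fold change of 1.42. SUC2 (CotAD_31169), the sucrose transporter that loads the phloem, had 21.5, 12.6 and 12.6 RPKM in Gb2WT and 1.33, 3.01 and 2.01 in Gh2WT (log2 fold change 2.86, SE 0.33, edgeR adjusted p = 0.00019). ALMT9 (CotAD_22049), an anion channel of the vacuole, had 41.8, 40.5 and 40.8 RPKM in Gb2WT and 12.6, 9.67 and 15.7 in Gh2WT (log2 fold change 1.68, SE 0.16, edgeR adjusted p = 6e-05). A heavy metal transport protein (CotAD_12986) averaged 22 ± 4.76 RPKM against 3.73 ± 1.46 (SD, n = 3; log2 fold change 2.54, edgeR adjusted p = 0.00013). Both PDR5-type ABC transporters rose, CotAD_25778 by 1.63 and CotAD_47999 by 1.42 on the log2 scale. The magnesium transporter MGT9 (CotAD_40809) fell by 1.39 and an MFS protein (CotAD_42150) by 1.59. The SUC2 call was lost without Gh2WT replicate 3 (adjusted p = 0.0017), and those of the heavy metal protein, of CotAD_25778 and of CotAD_47999 without Gb2WT replicate 2 (adjusted p 0.0011 to 0.0016), that of CotAD_25778 also without Gb2WT replicate 3. CotAD_25778 was not called by limma-trend on log2(RPKM + 0.1) (adjusted p = 0.0011), nor CotAD_47999 with all 36 libraries in 1 fit (adjusted p = 0.0026). MGT9 and the MFS protein each lost theirs in 3 leave-one-out fits, without Gb2WT replicates 1 or 2 in both cases, and without Gh2WT replicate 3 for MGT9 and Gb2WT replicate 3 for the MFS protein (adjusted p up to 0.0023).

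Defence proteins and lipases held 3 higher and 0 lower genes of 9 tested (median log2 fold change 0.41). A Kunitz trypsin inhibitor (CotAD_22468), of a family that blocks insect digestive proteases, had 145, 82.6 and 82.5 RPKM in Gb2WT and 2.71, 3.29 and 4.55 in Gh2WT (log2 fold change 4.86, SE 0.30, edgeR adjusted p = 7.4e-06). A second inhibitor of this family (CotAD_52530) had 3.74, 4.52 and 2.48 RPKM in Gb2WT and 0, 0.172 and 0.0573 in Gh2WT (log2 fold change 5.40, SE 0.60, edgeR adjusted p = 0.00016). The first was thus the more abundant by far in Gb2WT, and neither overlapped. A GDSL lipase (CotAD_21735) averaged 5.11 ± 1.22 RPKM against 1.18 ± 0.139 (SD, n = 3; log2 fold change 2.09, edgeR adjusted p = 0.00024). With all 36 libraries in 1 fit both inhibitors missed the threshold (adjusted p = 0.0014 and 0.0021). CotAD_52530 also missed it without Gb2WT replicate 1 or 2 or Gh2WT replicate 3, and the lipase without any 1 of these or Gh2WT replicate 1 (adjusted p 0.001 to 0.0017).

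Of 18 disease resistance and receptor genes 16 were tested, 2 were higher and 0 lower, a share near the 11.8% called over all genes, with a median log2 fold change of 0.40. Both encode NB-ARC proteins, the class of intracellular immune receptors: CotAD_73916 averaged 3.17 ± 0.238 RPKM in Gb2WT and 0.43 ± 0.163 in Gh2WT (SD, n = 3; log2 fold change 2.85, edgeR adjusted p = 8e-05), and CotAD_01114 averaged 2.52 ± 0.149 and 0.542 ± 0.189 (log2 fold change 2.20, edgeR adjusted p = 0.0001). Their covered share of the gene model also differed between the groups, at 55% and 32.7% for the first and 98.2% and 63.4% for the second. The lower shares go with few reads in Gh2WT, 10, 13 and 21 for the first and 46, 41 and 77 for the second. In Gb2WT, however, the first had 103, 95 and 110 reads over 1338 bases. Its 55% there lay below the median of 91.6% to 91.9% for genes with 50 to 100 reads per kilobase, and the reason was not tested. The other 14 members tested, among them the FERONIA homologue, CRK and RLP genes and RPP8, were not called, with log2 fold changes from -0.67 to 4.45. The third NB-ARC gene of the list, CotAD_59175, was at 0.09 (adjusted p = 0.67).

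Secondary metabolism held 2 higher and 1 lower gene of 8 tested (median log2 fold change 0.42). SOT18 (CotAD_44293), a sulfotransferase of glucosinolate synthesis in Arabidopsis, had 8.93, 8.24 and 11.8 RPKM in Gb2WT and 0.81, 0.555 and 0.909 in Gh2WT (log2 fold change 3.64, SE 0.23, edgeR adjusted p = 8.6e-06). DMR6 (CotAD_15307), an oxygenase that breaks down salicylic acid, had 81, 59.6 and 43.3 RPKM against 9.86, 11.3 and 7.08 (log2 fold change 2.69, SE 0.27, edgeR adjusted p = 8.5e-05). An O-methyltransferase (CotAD_19197) averaged 0.0868 ± 0.0869 RPKM in Gb2WT and 2.12 ± 0.426 in Gh2WT (SD, n = 3; log2 fold change -4.54, edgeR adjusted p = 0.00027), a call that was lost without Gb2WT replicate 2 or Gh2WT replicate 3 (adjusted p = 0.0027 and 0.0015). Its 42, 48 and 63 reads in Gh2WT covered only 17.1% of a gene model of 948 bases. Genes with 20 to 30 reads per kilobase had a median of 76.3% to 76.5% in these libraries. The call thus rests on a small part of the model, and the reason was not tested. Flavonoid 3'-monooxygenase (CotAD_24173) had 96.6, 72.8 and 64.7 RPKM in Gb2WT and 27.6, 38.2 and 21.6 in Gh2WT, without overlap but short of the adjusted p (log2 fold change 1.40, SE 0.23, adjusted p = 0.0015).

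In cell wall and growth, 10 of 12 genes were tested, 1 was higher and 1 lower, and the median log2 fold change was 0.54. EXLB1 (CotAD_72788), an expansin-like protein, had 0, 0.218 and 0 RPKM in Gb2WT and 18.3, 42.6 and 36.5 in Gh2WT (log2 fold change -8.69, SE 0.63, edgeR adjusted p = 1.7e-05). SABRE (CotAD_30080), a gene of cell expansion in roots, was low in both groups at 0.588 ± 0.0843 and 0.0653 ± 0.00804 RPKM (SD, n = 3; log2 fold change 3.14, edgeR adjusted p = 2.2e-05), and on log2(RPKM + 1) its difference was 0.57 and not called. The expansin EXPA20 and the formin Fh5 had too few reads to be tested.

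Among signalling and other regulators 1 gene was higher and 1 lower of 9 tested (median log2 fold change 0.32). An EF-hand calcium-binding protein (CotAD_40639) had 41, 37.9 and 29.9 RPKM in Gb2WT and 125, 218 and 129 in Gh2WT (log2 fold change -2.14, SE 0.24, edgeR adjusted p = 0.00018), a call that was lost without any 1 Gb2WT library (adjusted p 0.0012 to 0.0019). FAB1C (CotAD_58997), a lipid kinase of endosomes, averaged 10.6 ± 1.42 and 5.25 ± 0.429 RPKM (SD, n = 3; edgeR adjusted p = 0.00041). Its log2 fold change of 1.00 lies on the threshold, and 11 of 13 other settings did not call it.

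The 6 genes of green leaf tissue stand for expanded leaf in an apex sample. Their summed level was 61.7 to 76.6 RPKM in Gb2WT and 52.9 to 57.8 in Gh2WT, none was at 0 and the median log2 fold change was 0.54. CA1 (CotAD_07955), a carbonic anhydrase abundant in leaves, had 15.8, 26.2 and 23.1 RPKM against 12.9, 12.8 and 16.4 (log2 fold change 0.61, SE 0.19, adjusted p = 0.028). GGR (CotAD_07016), named for the geranylgeranyl pathway that feeds chlorophyll, had 1.69, 3.56 and 2.92 RPKM in Gb2WT and 13.2, 11.9 and 16.1 in Gh2WT (log2 fold change -2.35, SE 0.25, edgeR adjusted p = 0.00013). DAG (CotAD_68811), of chloroplast development, had 16.8, 18 and 20.4 RPKM against 8.6, 5.8 and 7.37 (log2 fold change 1.32, SE 0.15, edgeR adjusted p = 0.00021). Hence 1 was higher and 1 lower, and the part of leaf tissue in the other results was not tested. In whole apexes, fewer cells of a type and less RNA per cell cannot be told apart. The DAG call was lost without any 1 Gb2WT library or Gh2WT replicate 3 and that of GGR without Gb2WT replicate 3 (adjusted p 0.0011 to 0.0017).

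**Figure D3:**
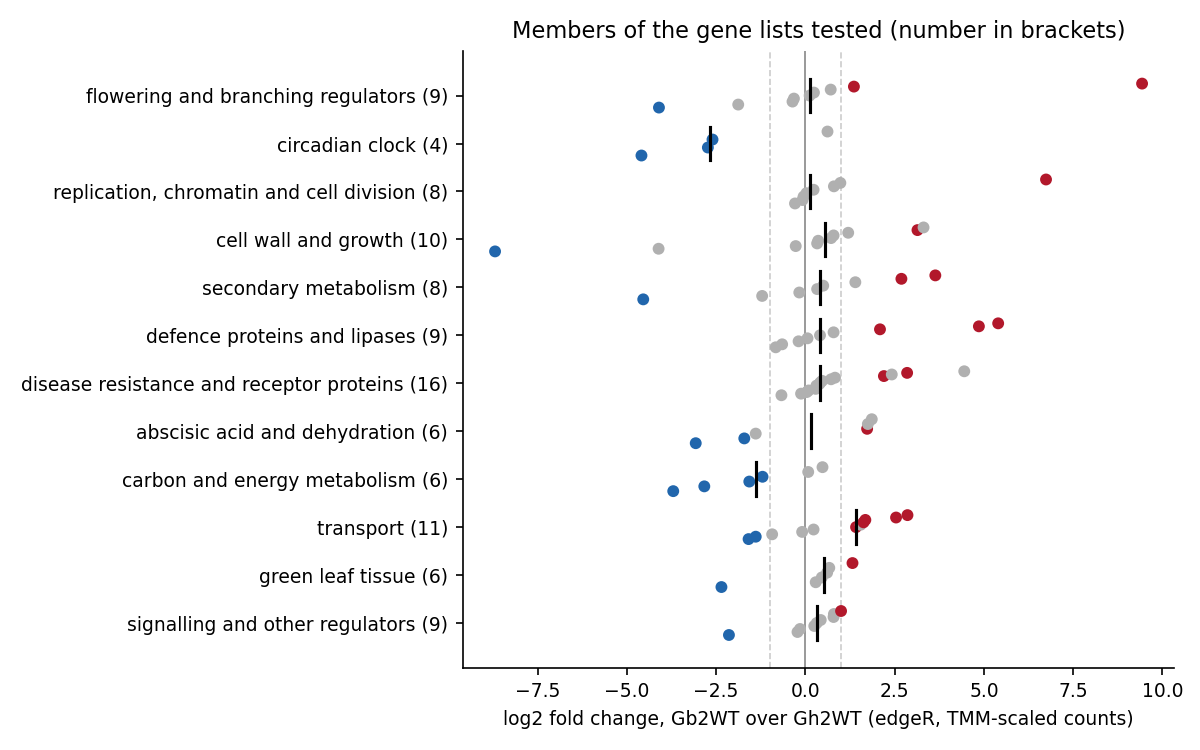
Log2 fold change of Gb2WT over Gh2WT (horizontal axis) for each tested member of the 12 gene lists (rows, number tested in brackets). Members called are red when higher and blue when lower in Gb2WT, others are grey, dashed lines mark -1 and 1 and the black tick is the list's median, which is lowest for the clock (-2.66) and carbon and energy (-1.39) and highest for transport (1.42).

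Genes outside the lists gave the largest changes. None of them has a name in the files. Among genes with at least 10 reads in each of the 6 libraries, CotAD_13727 fell by 8.39 on the log2 scale, from 161, 205 and 221 RPKM in Gh2WT to 0.472, 0.438 and 0.853 in Gb2WT (SE 0.26, edgeR adjusted p = 5.5e-07). It averaged 0.0928 RPKM in Gb1WT and 0.51 in Gb3WT but 90.6 in Gb2np, and was thus low at every stage of Hai1 and not in the other G. barbadense line at this stage. CotAD_30473, CotAD_32426, CotAD_19201 and CotAD_40073 had log2 fold changes of -7.35, -6.61, -6.53 and -6.51. The last held 43.7 to 52.7 RPKM in Gh2WT and 0.367 to 0.674 in Gb2WT, with 46.9 in Gh2np and 0.676 in Gb2np.

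Of the largest rises, CotAD_08742 had 95.9, 122 and 38.3 RPKM in Gb2WT and 0.244, 1.49 and 0.313 in Gh2WT (log2 fold change 6.94, SE 0.72, edgeR adjusted p = 0.00011). CotAD_48004 had 107, 128 and 106 RPKM against 1.24, 1.32 and 1.21 (log2 fold change 6.47, SE 0.15, edgeR adjusted p = 2.3e-07), and stood as far apart in the nulliplex-branch lines, at 142 in Gb2np and 0.947 in Gh2np. CotAD_66926 had 681, 631 and 384 RPKM against 14.9, 1.48 and 3.78 (log2 fold change 6.39, SE 0.79, edgeR adjusted p = 0.00029), but only 5.39 in Gb2np. Its call was lost without Gb2WT replicate 1 or 2 or Gh2WT replicate 3 (adjusted p 0.0014 to 0.002). CotAD_58937 rose by 6.02 and CotAD_60749 by 5.92.

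The most abundant transcripts were shared in part. CotAD_29142 and CotAD_35658 were among the 5 highest of both groups, with 3497 to 3813 and 2144 to 2611 RPKM over the 6 libraries and log2 fold changes of -0.01 and -0.11 (adjusted p = 0.96 and 0.52). CotAD_09650 was among the highest in Gb2WT with 3758, 3514 and 1960 RPKM and lower in Gh2WT with 220, 277 and 236 (log2 fold change 3.64, SE 0.28, edgeR adjusted p = 2.1e-05). CotAD_00696 had 2435, 2025 and 1610 RPKM against 244, 146 and 234 (log2 fold change 3.27, SE 0.24, edgeR adjusted p = 2e-05). CotAD_24383, high in Gb2WT, was not called and overlapped between the groups, at 3356, 2196 and 1049 RPKM against 447, 1495 and 527 (log2 fold change 1.40, SE 0.53, adjusted p = 0.063). In Gh2WT the genes at the top were CotAD_64203, CotAD_64340 and CotAD_23329 beside the shared pair, with log2 fold changes of -1.57, -1.49 and -0.94 and adjusted p of 0.0085, 0.0011 and 0.00097. None of these 3 was called. For CotAD_64203, Gh2WT replicate 2 held 7480 RPKM beside 3133 and 2817 in the other replicates.

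Some genes were read in one group alone. With a mean of at least 10 reads, 329 genes had reads in every Gb2WT library and none in Gh2WT (0.544% of 60467 genes read in any of the 6), and 397 had reads in every Gh2WT library and none in Gb2WT (0.657%). Against 3 reads over the empty group the median gene was at least 25.1-fold higher or at least 29.8-fold lower in Gb2WT. The median coding length was 711 bases for the former and 483 for the latter. Of the 329 genes, 99 had no read in any of the 18 G. hirsutum libraries, 189 none in the 9 libraries of Huazhong 94-3130, and 33 were read in all 3 Gh2np libraries. Of the 397, 157 had no read in any of the 18 G. barbadense libraries, 245 none in the 9 libraries of Hai1, and 78 were read in all 3 Gb2np libraries. Absence of a transcript in Gb2WT and failure of its reads to align cannot be told apart for genes empty throughout G. barbadense. The same holds for genes empty throughout Hai1, since reads in Gb2np come from another line.

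The most abundant gene read in Gh2WT alone was CotAD_18206 at 130, 161 and 151 RPKM, at least 920-fold lower in Gb2WT. It was read in the other G. barbadense line, with 119 ± 7.38 RPKM (SD, n = 3) in Gb2np. In Hai1 it averaged 0.104 RPKM in Gb1WT and 0.108 in Gb3WT. Whether the Hai1 copy is silent, lacking or fails to align cannot be told from these values. CotAD_31058, the gene with the largest bound, had 82.5, 80.6 and 97.9 RPKM in Gh2WT and was at least 3107-fold lower, with 40 reads over all 18 G. barbadense libraries. CotAD_49221, CotAD_47644 and CotAD_07366 followed with means of 67.2, 50.9 and 33.7 RPKM in Gh2WT and 3, 1 and 1 reads over the G. barbadense libraries. CotAD_47644 was at 0 RPKM in every Gh2np library too, whereas CotAD_49221 and CotAD_07366 averaged 78.7 and 36.4 there. In the other direction CotAD_53760 had 23.8, 27.7 and 29.9 RPKM in Gb2WT, at least 163-fold higher, and no read in any G. hirsutum library. CotAD_02314, CotAD_19074, CotAD_66424 and CotAD_61079 averaged 20.5 to 21.9 RPKM in Gb2WT, with 2 to 6 reads over all G. hirsutum libraries. Of these, CotAD_19074 was at 0 RPKM in every Gb2np library, whereas the others averaged 6.89 to 24.9 there.

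The files also give the share of each gene model covered by reads. It comes from the same reads as the counts and rises with their number. At 20 to 30 reads per kilobase the median covered share was 74.4% to 74.9% in the Gb2WT libraries and 76.3% to 76.5% in Gh2WT, and at 1000 or more it was 99.6% in all 6. Among genes with at least 50 reads per kilobase in each library, the covered share was more than 10 points lower in Gb2WT for 11.1% of 1411 genes called lower, 0.636% of 1100 called higher and 1.78% of 30594 not called. It was more than 10 points higher in Gb2WT for 0.142%, 4.91% and 0.582% of them. Genes called lower have fewer reads in Gb2WT by definition, and depth was not matched between the groups in these shares. The covered share is thus not separate evidence on the calls, and its part in them was not tested. Of the clock genes, LHY was covered at 46.6% in Gb2WT and 96.4% in Gh2WT at its low read count there, EPR1 at 87.5% and 99.4%, and PRR5 at 93.2% and 99.4%.

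The same species comparison was made in 3 other pairs of groups, none of which shares a library with it. Seedlings of the normal-branch lines differed in 1594 of 44725 genes (3.56%), with 1.41% higher and 2.15% lower in G. barbadense. Squaring apexes differed in 3805 of 46911 (8.11%; 3.62% higher and 4.49% lower), and pre-squaring apexes of the nulliplex-branch lines in 5198 of 47125 (11%; 5.22% higher and 5.81% lower). Genes called in the same direction made up 1270 in seedlings (22.8% of the 5571 and 79.7% of the seedling calls), 2466 at squaring (44.3% and 64.8%) and 2503 in the nulliplex-branch lines (44.9% and 48.2%). Opposite calls numbered 3, 4 and 73. In all 4 pairs 304 genes were higher and 550 lower, and 2094 genes (37.6%) were called in the normal-branch pre-squaring pair and in none of the others. SOT18 was the only member of the lists called in all 4 pairs, at log2 fold changes of 3.64 here, 3.55 in seedlings, 3.03 at squaring and 3.37 in the nulliplex-branch lines. At all 3 normal-branch stages 391 genes were higher and 696 lower, of which 233 were not called the same way in the nulliplex-branch pair. Over the genes tested, the group means of log2(RPKM + 1) correlated at 0.867 between Gb2WT and Gh2WT, at 0.905 between Gb2np and Gh2np, at 0.928 between the G. barbadense groups Gb2WT and Gb2np and at 0.970 between Gh2WT and Gh2np, as a description across genes.

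Whether the species difference itself differed was tested as a contrast over 12 libraries for each pair. Against the nulliplex-branch pair 2164 of 49137 genes differed (4.4%), 988 (2.01%) with a more positive and 1176 (2.39%) with a more negative effect in the normal-branch pre-squaring pair. Against seedlings 130 of 48878 genes differed (0.266%), 0.151% more positive and 0.115% more negative. Against squaring it was 157 of 49126 (0.32%), 0.0875% more positive and 0.232% more negative. These tests share Gb2WT and Gh2WT, and the first is by construction also the difference between the branch effects of the species. Of the 5571 genes called here 1299 (23.3%) were called against the nulliplex-branch pair, 102 (1.83%) against seedlings and 132 (2.37%) against squaring. The counts against seedlings and squaring ran from 34 to 144 and from 35 to 239 when single libraries were left out. They were lowest without Gb2WT replicate 2 for the first and without Gb2WT replicate 1 or 2 for the second.

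The species difference of LHY was called in the normal-branch pre-squaring pair and in no other, and the difference between the effects passed the test each time. The study picked LHY, EPR1 and PRR5 in these libraries as higher in Gb2np than Gb2WT and lower in Gh2np than Gh2WT. That choice favours a low Gb2WT and a high Gh2WT level. Their differences against the nulliplex-branch pair restate it, and the adjusted p given for them are descriptions. LHY had 0.691 ± 0.248 RPKM in Gb1WT and 0.852 ± 0.238 in Gh1WT, 0.266 ± 0.0407 in Gb3WT and 0.222 ± 0.0524 in Gh3WT, and 4.59 ± 2.31 in Gb2np and 3.43 ± 0.867 in Gh2np (SD, n = 3). Its species effects there were -0.26, 0.26 and 0.40 and none was called. The effect here minus that in seedlings was -4.32, minus that at squaring -4.83 and minus that in the nulliplex-branch pair -4.99 (edgeR adjusted p = 0.00099, 0.00027 and 2.5e-05). The call against seedlings was kept in only 1 of 12 leave-one-out fits and that against squaring in 6 (adjusted p up to 0.0043). PRR5 differed by -3.24 from squaring and by -2.61 from the nulliplex-branch pair (edgeR adjusted p = 1e-04 and 4.8e-05), and by -2.79 from seedlings, just short of the threshold (adjusted p = 0.0011). EPR1 was lower in Gb2WT but higher in Gb2np (13 ± 4.6 against 3.03 ± 0.852 RPKM in Gh2np, log2 fold change 2.07, edgeR adjusted p = 0.00025), a difference of -4.67 (edgeR adjusted p = 4e-06). The second LHY homologue was the reverse, at 0.714 ± 0.316 RPKM in Gb2np and 7.83 ± 0.967 in Gh2np (log2 fold change -3.46, edgeR adjusted p = 8.5e-06) and a difference of 4.09 (edgeR adjusted p = 1.7e-06).

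Several metabolic and stress genes had opposite signs in the branch types. They too come from tables of branch-type differences in these libraries, so the choice of genes favours this contrast. HAI1 was lower in Gb2WT and higher in Gb2np (2.75 ± 0.666 against 0.162 ± 0.108 RPKM in Gh2np), a difference of -7.09 (SE 0.59, edgeR adjusted p = 3.3e-06). TPS5 was lower here by 1.20 and higher by 1.25 in the nulliplex-branch pair, a difference of -2.45 (edgeR adjusted p = 6.2e-06). For ADH1, ALDH11A3 and ERD4 the difference was -3.60, -2.40 and -2.74 (edgeR adjusted p = 7.3e-05, 7.6e-05 and 2e-05), while their nulliplex-branch effects of 0.77, 0.84 and 1.04 were not called. Whether the sign goes with branch type was not tested. At squaring in the normal-branch lines, HAI1 and ERD4 were at 1.57 and 1.03. TPS5, ADH1 and ALDH11A3 were at 0.04, -0.43 and 0.01 there, and none of these squaring effects was called. Beta-amylase did not turn: it was lower in G. barbadense by 3.15 in the nulliplex-branch pair and by 4.42 at squaring, and its difference of -0.54 was not called (adjusted p = 0.072).

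Other differences against the nulliplex-branch pair were as large as the species effects. The Kunitz inhibitor CotAD_22468 was higher in Gb2WT but lower in Gb2np, at 12.2 ± 2.42 RPKM against 198 ± 32.4 in Gh2np (SD, n = 3), a difference of 8.91 (SE 0.38, edgeR adjusted p = 5.1e-09). CotAD_52530, of the same family, behaved alike at 0.243 ± 0.107 and 6.48 ± 1.54 RPKM, a difference of 10.11 (SE 0.68, edgeR adjusted p = 4.3e-07). CYCD1;1 stood at 5.02 ± 1.19 RPKM in Gb2np and 5.36 ± 0.272 in Gh2np, and of the 4 pre-squaring groups only Gh2WT was near 0 (difference 6.86, SE 0.45, edgeR adjusted p = 3.3e-07). SUC2 was alike in the nulliplex-branch lines at 1.62 ± 0.203 and 1.31 ± 0.176 RPKM, and Gb2WT was the high group (difference 2.57, edgeR adjusted p = 0.00079). Of the list members, 31 were called in this contrast, beside 4.4% of all genes. The members come from tables of branch-type differences in these libraries, so the choice of genes favours this contrast and nothing is read from the count.

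**Figure D4:**
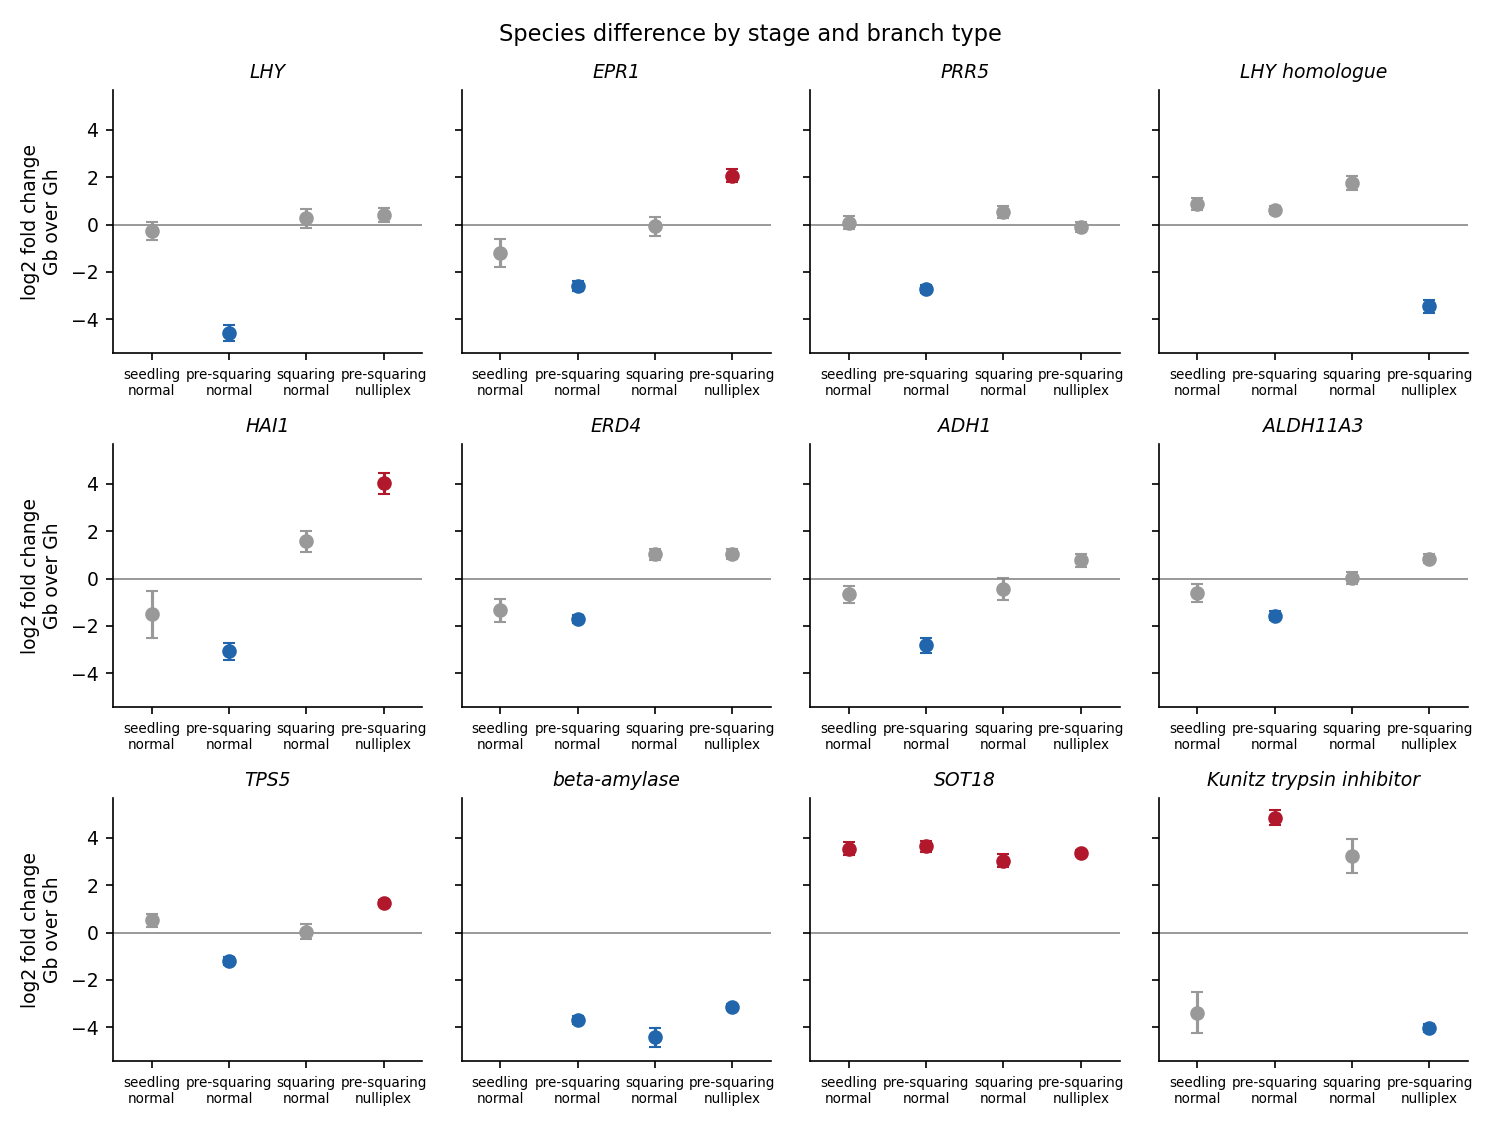
Species difference (log2 fold change of G. barbadense over G. hirsutum, vertical axis, with its standard error) of 12 genes in the 4 pairs of groups, each of 3 against 3 libraries; red and blue points were called higher and lower, grey ones were not called, and a missing point was not tested. The Kunitz panel is CotAD_22468. LHY and PRR5 lie near 0 outside the normal-branch pre-squaring pair, EPR1, HAI1 and TPS5 turn from lower to higher in the nulliplex-branch pair, and SOT18 stays between 3.03 and 3.64.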

How the data were processed

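Per the labels and the study's methods, RNA of shoot apexes of about 10 mm was sequenced on an Illumina platform, and the authors aligned filtered reads to the G. hirsutum genome with SOAP2, allowing 5 mismatches. They deposited counts of reads per gene, called unique in the file headers, RPKM, and the covered share of each gene model in percent, and the treatment of reads that fit several genes is not stated. Near-identical gene copies may therefore have shared or lost reads, and no strand information is given. Genes not listed were set to a count of 0. Every gene length is a multiple of 3 and is called coding length.

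Groups of 3 libraries were compared with edgeR 4.0.16 (R 4.3.3): counts scaled by TMM, low genes removed by filterByExpr (minimum count 10), and the quasi-likelihood F test. Standard errors were derived from the log2 fold change and F. Fold changes are on TMM-scaled counts; they differed from log2 ratios of mean RPKM by a median of -0.02. Differences between species effects were contrasts over 12 libraries. Bounds use 3 reads over the empty group and cover counting error only. Alternatives were DESeq2 1.42.0, no filter, library-total scaling, all 36 libraries in 1 fit, a replicate block, limma-trend (limma 3.58.1) on log2(RPKM + 1) or log2(RPKM + 0.1), and leave-one-out fits.

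Genes were named by a rule: all clock and flowering or branching genes, per other list up to 4 called members with the largest change, the 5 largest other rises and falls with at least 10 reads in each library and no overlap, the 5 most abundant genes read in 1 group alone, the 5 most abundant per group, and per difference up to 6 list members and the 2 largest others each way. Further list members were named after their values were seen. Members and lists were chosen with earlier results of these data known. Small RNA tables were not used here.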

Additional observations from a re-analysis of the deposited data

Results flagged for a closer look

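These genes were picked out because the species difference of Gb2WT over Gh2WT differed, by a test of the difference itself, from that of another pair of groups. Values are differences between log2 fold changes with their edgeR adjusted p over all genes. All share the Gb2WT and Gh2WT libraries. The list members among them were chosen on branch-type differences in these libraries, which favours the contrast against the nulliplex-branch pair.

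Against the nulliplex-branch pair, the differences were 10.11 and 8.91 for the Kunitz inhibitors CotAD_52530 and CotAD_22468 (adjusted p = 4.3e-07 and 5.1e-09) and 6.86 for CYCD1;1 (adjusted p = 3.3e-07). The bud repressor BRC1 gave a fitted difference of 10.16 (adjusted p = 9.4e-05), whose size depends on the prior count since Gh2WT held no read. HAI1 differed by -7.09 (adjusted p = 3.3e-06), the unnamed genes CotAD_03482 and CotAD_13727 by -7.65 and -7.47, and CotAD_52532 and CotAD_66926 by 10.04 and 7.70. EXLB1 differed by -8.45 (adjusted p = 0.00042), and lost its call without any 1 Gb2WT or Gb2np library (adjusted p up to 0.0025), with the replicate block and with all 36 libraries in 1 fit.

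Against seedlings, LHY differed by -4.32 (adjusted p = 0.00099), with leave-one-out values from -4.60 to -3.96 and the call kept in 1 of 12. CotAD_31241 differed by -5.12 with the call kept in 3 of 12, and both lost it with the replicate block. CotAD_33120 differed by -4.59, CotAD_58173 by 6.05 and CotAD_33422 by 5.61, the last not called with all 36 libraries in 1 fit.

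Against squaring, LHY differed by -4.83, HAI1 by -4.63, the EF-hand protein by -3.43, PRR5 by -3.24 and ERD4 by -2.73. Their calls were kept in 6, 2, 6, 12 and 7 of 12 leave-one-out fits. CotAD_33121 differed by -6.02, CotAD_33120 by -5.85, CotAD_48930 by 4.08 and CotAD_47857 by 4.05, the last with the call kept in 2 of 12. HAI1 and CotAD_47857 were also not called with the replicate block or with all 36 libraries in 1 fit.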

How the results depend on the processing

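The 5571 calls of Gb2WT against Gh2WT became 8219 with DESeq2, 6020 without the filter, 5487 with library-total scaling, 6705 with all 36 libraries in 1 fit and 5014 or 5147 with limma-trend, and list members called ranged from 32 to 43 beside 35. Scaling to the library total put 46.6% of calls higher against 45.3%. Leave-one-out fits gave 2807 to 5857 calls here, 21 to 41 list members, 367 to 1256 for seedlings (1594 in full), 1703 to 2565 for squaring (3805), 3365 to 5894 for the nulliplex-branch pair (5198), and for the differences 1357 to 2210 (2164), 34 to 144 (130, seedlings) and 35 to 239 (157, squaring). DESeq2 gave 4695 seedling and 6811 squaring calls and 4050, 1378 and 1734 for the differences against the nulliplex-branch pair, seedlings and squaring. All 36 libraries in 1 fit gave 5100, 6067, and 591 and 439 for the last 2 differences. Without the filter these became 197 and 387, and limma-trend gave 475 against seedlings. The cause was not tested. Genes read in Gb2WT alone fell to 140 and 41 at means of 30 and 100 reads and to 99 without any read in the other species, and those in Gh2WT alone to 199, 60 and 157, by construction.

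Same-numbered replicates of the 2 groups deviated together at r = -0.033, 0.032 and 0.138, and those of different number at -0.193 to 0.161. Whether replicates of the same number were sampled together cannot be told from these values. With a replicate block 4943 genes were called, 555 in seedlings and 62 for the difference against seedlings, where LHY and CotAD_31241 were not called. The block also ended the calls of EXLB1 against the nulliplex-branch pair and of HAI1 and CotAD_47857 against squaring.

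Of 988 alternative values of 76 named genes, 910 kept direction and side of the threshold, 71 were no longer past it, 4 passed it newly and 3 changed sign. When single libraries were left out, RAV1 ranged from -0.09 (without Gb2WT replicate 1) to 0.26, NF-YC13 from -0.79 to 0.50 and BARD1 from -0.62 to 0.09 (the highest without Gh2WT replicate 3), and ATXR6, named after its values were seen, from -0.56 to 0.46 (likewise), none of them called. With 3 libraries a group, genes under 1 RPKM had a median standard error of 0.43.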
